A study of Oryza sativa with 24 samples.

Results

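The regions described here are the H3K4me3 peaks of Nipponbare rice shoots that also carried H3K9ac and carried neither H3K27me3 nor DNA methylation. They were chosen from the authors' Nipponbare peak lists as H3K4me3 peaks under 3000 bp wide that overlapped an H3K9ac peak by at least 1 bp and overlapped no peak of the H3K27me3 and DNA methylation lists. The rule kept 12571 of the 28273 Nipponbare H3K4me3 peaks (44.5%), all on the 12 nuclear chromosomes, and they are called active-only peaks here. All 16 lists of the study together hold 410072 peaks. The marks in Nipponbare are fixed by the choice, so in another line the active pair could only be present or missing and H3K27me3 or DNA methylation could only be added. What the data add is how often each occurred.

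The study profiled shoots of seedlings grown in soil for 4 weeks to the 4-leaf stage. The 4 lines were Nipponbare, a japonica rice, 93-11, an indica rice, and the F1 hybrids of both crosses between them, labelled Nipponbare/93-11 and 93-11/Nipponbare. Which name in a hybrid label is the seed parent is not given in the sources used here. Chromatin immunoprecipitation with an antibody to H3K4me3, H3K9ac or H3K27me3, or an enrichment of methylated DNA with the methylation-dependent enzyme McrBC, gave 1 list of peak positions for each mark and line. The lists hold no heights or read counts, and with 1 library per mark and line there was no replicate error, so no difference between lines was tested. Lists held 27526 to 30697 peaks for H3K4me3, 28737 to 31943 for H3K9ac, 17479 to 20460 for H3K27me3 and 22332 to 24695 for DNA methylation. A mark is called listed where a peak of its list overlapped the region by at least 1 bp. Brackets after a share give its exact 95% interval (Clopper-Pearson), which accounts for counting error alone.

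In plants, H3K4me3 is set around the starts of transcribed genes, and H3K9ac is laid down by histone acetyltransferases at the same active promoters. H3K27me3 is written by the Polycomb repressive complex and marks genes held silent in a tissue or stage, while dense DNA methylation covers transposons and silenced repeats. A promoter that carries the active pair without either of the others has the usual chromatin of a gene in steady use. The shoot is a mixture of cell types, so marks listed at the same position can come from different cells, and a mark held by fewer cells cannot be told apart from a weaker mark in all cells.

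Of the 28273 H3K4me3 peaks, 508 were 3000 bp wide or more and 2082 narrower ones had no H3K9ac. Of the remaining 25683, 12074 overlapped H3K27me3, and another 1038 overlapped DNA methylation without H3K27me3. Active-only peaks were 401 to 2991 bp wide, with a median of 1248 bp. The middle part of the distribution ran from 1027 bp (lower quartile) to 1504 bp (upper quartile). Peaks of the same width limit with H3K9ac and H3K27me3 and no DNA methylation, 11095 in number, had a median of 1479 bp, and those without H3K9ac one of 1191 bp. Around the width limit, 32 active-only peaks measured 2900 bp or more, and 26 peaks from 3000 to under 3100 bp met the rest of the rule. H3K27me3 was listed in 93-11 at 20 of the former and 11 of the latter. The limit removed 122 peaks that otherwise qualified.

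Within Nipponbare the 2 active marks lay almost on top of each other. The H3K9ac peak at an active-only peak had a median width of 1456 bp, 1.15 times that of the H3K4me3 peak (quartiles 1.02 and 1.34). Its midpoint lay a median of 83 bp from the H3K4me3 midpoint. Only 12 of the 12571 peaks were overlapped by more than 1 H3K9ac peak. The nearest H3K27me3 peak of Nipponbare was a median of 7187 bp away and the nearest DNA methylation peak 5094 bp. DNA methylation lay within 500 bp of 10.5% of the peaks and H3K27me3 within 500 bp of 2.70%. The nearest other H3K4me3 peak was a median of 4715 bp away, against 4674 bp over the whole H3K4me3 list. The next H3K4me3 peak after an active-only peak was active-only too in 5909 of 12564 cases (47.0%, 46.2 to 47.9%), close to their 44.5% share of the list. In all, 2221 of them lay in 366 stretches of 5 or more neighbouring H3K4me3 peaks that all met the rule. The longest stretch ran on chromosome 4 from 31239861 to 31430833 and held 19. In 93-11, 18 of these 19 were listed for H3K4me3, 17 for H3K9ac, 2 for H3K27me3 and 3 for DNA methylation.

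The active pair was listed at most of these positions in the other 3 lines, about as often as at H3K4me3 peaks in general. In 93-11, H3K4me3 was listed at 10873 active-only peaks (86.5%, 85.9 to 87.1%), where 86.6% of all Nipponbare H3K4me3 peaks had it. In Nipponbare/93-11 the share was 96.9% (96.6 to 97.2%) against 96.8% of all peaks, and in 93-11/Nipponbare 95.3% (95 to 95.7%) against 95%. H3K9ac was listed at 85.7% (85.1 to 86.3%) in 93-11, 96.3% (96.0 to 96.6%) in Nipponbare/93-11 and 93.9% (93.4 to 94.3%) in 93-11/Nipponbare. Over all H3K4me3 peaks these values were 83.9, 94.3 and 91.7%, but the active-only peaks were chosen for H3K9ac and the whole list was not. The step from 93-11 to the hybrids was smaller with shortened hybrid lists. With the lists of 93-11 and the hybrids shortened, for each mark, to the shortest of these 3 by keeping the widest peaks, H3K4me3 was listed at 86.5% in 93-11, 87.4% in Nipponbare/93-11 and 89.6% in 93-11/Nipponbare, and H3K9ac at 85.7, 88.9 and 90.8%. This removes narrow hybrid peaks and leaves the lists of 93-11 whole, so list length and peak width cannot be told apart.

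H3K27me3 was listed at a similar share of active-only peaks in each of the other lines. The counts were 2291 in 93-11 (18.2%, 17.6 to 18.9%), 2426 in Nipponbare/93-11 (19.3%, 18.6 to 20%) and 2460 in 93-11/Nipponbare (19.6%, 18.9 to 20.3%). Over all Nipponbare H3K4me3 peaks the shares were 46.9, 52.2 and 52.0%. Over the 15058 H3K4me3 peaks without H3K27me3 in Nipponbare, which is the closer comparison for peaks chosen to lack it, they were 18.2, 19.4 and 19.8%. The active-only peaks stood at the background of H3K27me3-free peaks, of which they make up most. All 3 of these lines had longer H3K27me3 lists than Nipponbare (17479 peaks), with 18761 in 93-11, 20360 in Nipponbare/93-11 and 20460 in 93-11/Nipponbare. With the hybrids' lists shortened to the length of that of 93-11, still longer than that of Nipponbare, the order turned, and the hybrids had 15.6% each against 18.2% in 93-11. Here too only the narrowest hybrid peaks were removed, so length and width cannot be told apart.

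DNA methylation was listed at 1005 active-only peaks in 93-11 (7.99%, 7.53 to 8.48%), at 965 in Nipponbare/93-11 (7.68%, 7.22 to 8.16%) and at 851 in 93-11/Nipponbare (6.77%, 6.34 to 7.22%). Shares of all H3K4me3 peaks were 9.94, 10.6 and 10.9%. Among the 26070 H3K4me3 peaks without DNA methylation in Nipponbare they were 6.86, 6.80 and 6.13%, again in the order 93-11, Nipponbare/93-11, 93-11/Nipponbare. Peaks with H3K9ac and H3K27me3 and no DNA methylation in Nipponbare had it at 5.81% (5.39 to 6.27%) in 93-11, 6.02% (5.59 to 6.48%) in Nipponbare/93-11 and 5.55% (5.13 to 5.99%) in 93-11/Nipponbare. The active-only share was higher than that of this class in each of the 3 lines, with 1 library behind each share. The intervals treat peaks as independent, and the difference was not tested.

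H3K4me3 itself was listed more often in the class with H3K9ac and H3K27me3. It was found at 89.3% (88.7 to 89.9%) of it in 93-11, 98.9% (98.7 to 99.1%) in Nipponbare/93-11 and 97.2% (96.9 to 97.5%) in 93-11/Nipponbare. Peaks without H3K9ac had H3K4me3 in 76.0% (74.1 to 77.8%), 85.1% (83.5 to 86.6%) and 80.5% (78.7 to 82.2%) of cases in the same order. The active-only peaks lay between these classes in each line. The classes differed in width as given above, and the part of width in these differences was not tested.

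**Figure D1:**
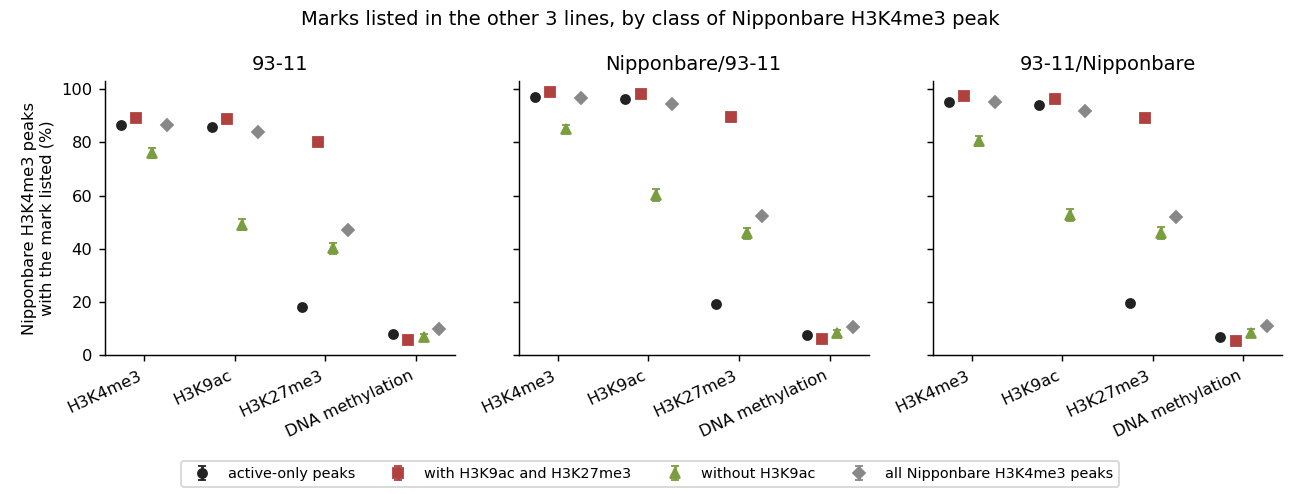
Share of Nipponbare H3K4me3 peaks (y axis, percent) at which each mark was listed in 93-11, Nipponbare/93-11 and 93-11/Nipponbare, for the 12571 active-only peaks, the 11095 peaks with H3K9ac and H3K27me3, the 2082 peaks without H3K9ac and all 28273 peaks. Bars are exact 95% intervals; H3K27me3 at active-only peaks stays between 18.2 and 19.6% in the 3 lines, while H3K4me3 runs from 86.5 to 96.9%.

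With all 4 marks read together, both active marks and neither of the others were listed at 7696 active-only peaks in 93-11 (61.2%, 60.4 to 62.1%), against 34.5% of all H3K4me3 peaks. In Nipponbare/93-11 this state held at 69.4% (68.6 to 70.2%, background 38.0%) and in 93-11/Nipponbare at 67.3% (66.5 to 68.1%, background 36.3%). It held in all 4 lines at 5848 peaks (46.5%, 45.6 to 47.4%), against 23.0% of all H3K4me3 peaks, a list that was not chosen for this state in Nipponbare. Another 2774 kept it in 2 of the other lines, 1795 in 1 and 2154 (17.1%, 16.5 to 17.8%) in none. In each line, most of the peaks with a changed state had the active pair with another mark added. In 93-11, 2012 peaks (16.0%) had both active marks with H3K27me3, 643 (5.11%) both with DNA methylation and 145 (1.15%) all 4 marks. No mark at all was listed at 1207 (9.60%, 9.09 to 10.1%) in 93-11, at 126 (1%) in Nipponbare/93-11 and at 168 (1.34%) in 93-11/Nipponbare. H3K4me3 without H3K9ac was found at 377 peaks in 93-11 and the reverse at 278. Apart from the active pair alone, these states were not counted over all H3K4me3 peaks.

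Read over the 3 lines together, the active-only peaks fell into 383 combinations of states, of which 178 were held by 1 peak each. The most frequent after the unchanged state was both active marks with H3K27me3 in all 3 other lines, at 977 peaks (7.77%, 7.31 to 8.25%). Next came no mark in 93-11 with the active pair alone in both hybrids, at 659 peaks (5.24%, 4.86 to 5.65%). H3K27me3 added in 1 line only, with the active pair alone in the other two, was found at 412 peaks for 93-11, 429 for Nipponbare/93-11 and 416 for 93-11/Nipponbare. These 3 counts were similar. DNA methylation beside the active pair in all 3 lines was found at 278 peaks. The combinations were counted at active-only peaks alone, so no background over other H3K4me3 peaks stands beside these counts.

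**Figure D2:**
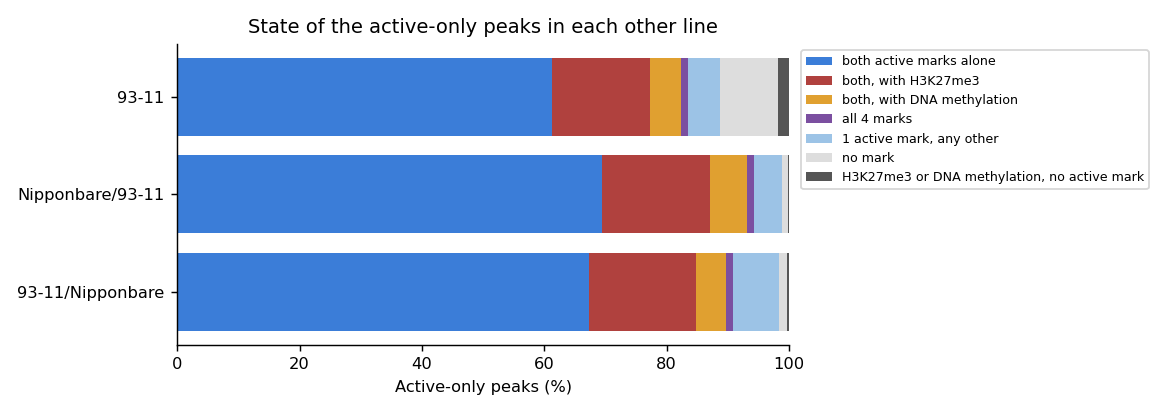
State of the 12571 active-only peaks of Nipponbare in each other line, as a share of the peaks (x axis, percent). Blue is the active pair alone, which covers 61.2% in 93-11, 69.4% in Nipponbare/93-11 and 67.3% in 93-11/Nipponbare; the light grey part without any mark covers 9.60% in 93-11 and 1 and 1.34% in the hybrids.

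The unchanged state is seen at wide peaks too. The widest active-only peak with both active marks alone in all 4 lines lay on chromosome 8 from 1638305 to 1641280 (2975 bp). There the other lines' H3K4me3 peaks covered 2646 bp in 93-11, 2660 bp in Nipponbare/93-11 and 2754 bp in 93-11/Nipponbare, although an H3K27me3 peak of Nipponbare began 1057 bp away. On chromosome 4 from 32229807 to 32232746 (2939 bp), H3K9ac covered the whole region in each of the other lines. On chromosome 2 from 35841698 to 35844617 (2919 bp), a DNA methylation peak of Nipponbare lay 320 bp away, and no DNA methylation reached the region in any line.

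The H3K27me3 and the DNA methylation listed in the other lines lay differently on these regions. H3K27me3 was centred on them. Its peaks had a median width of 1069 bp in 93-11, narrower than the active-only peak in most cases (median ratio 0.79, quartiles 0.64 and 1.02), with a median of 124 bp between the midpoints. They covered a median of 75.6% of the region in 93-11, 77.3% in Nipponbare/93-11 and 79.2% in 93-11/Nipponbare, and the midpoint of the region in 95% (94.1 to 95.9%), 96.0% and 96.4% of cases. DNA methylation mostly overlapped an edge. Its midpoint was a median of 960 bp from that of the region in 93-11, and it covered a median of 30.7% of the region there, 25.8% in Nipponbare/93-11 and 27.1% in 93-11/Nipponbare. It covered the midpoint of the region in 28.9% (26.1 to 31.8%), 25% and 28.6% of cases. Less than 10% of the region was covered in 224 of the 1005 cases in 93-11, 243 of 965 in Nipponbare/93-11 and 215 of 851 in 93-11/Nipponbare. With an overlap of 50% in both directions required, H3K27me3 was listed at 15.4% of active-only peaks in 93-11 and DNA methylation at 1.63%.

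**Figure D3:**
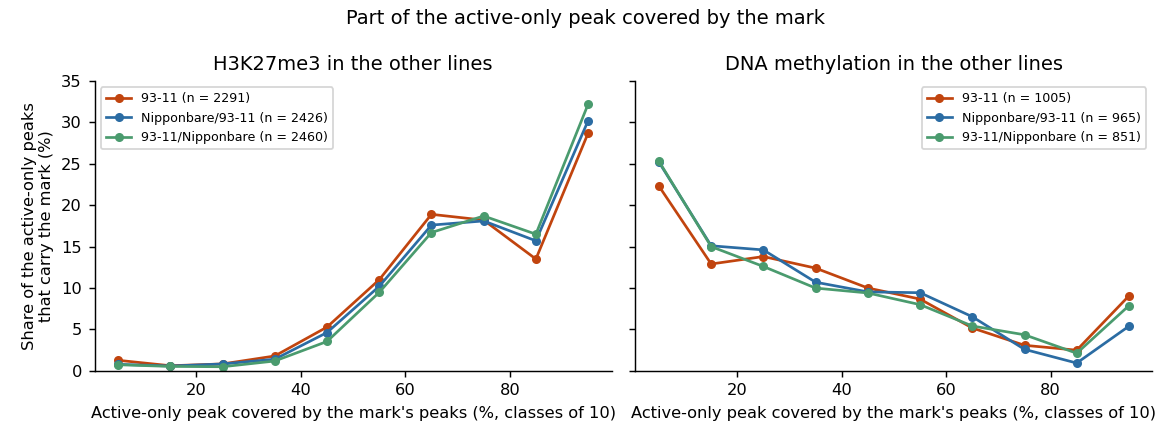
How much of the active-only peak the H3K27me3 peaks (left) and DNA methylation peaks (right) of each other line covered (x axis, percent in classes of 10), as a share of the peaks where the mark was listed (y axis, percent). In 93-11, 28.7% of the H3K27me3 cases cover 90% or more of the region, and 22.3% of the DNA methylation cases cover under 10%.

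H3K27me3 in another line was mostly listed together with the active marks. Of the 2291 active-only peaks with H3K27me3 in 93-11, 2195 (95.8%, 94.9 to 96.6%) had H3K4me3 there and 2207 (96.3%, 95.5 to 97.1%) had H3K9ac. H3K27me3 was listed at 20.6% (19.8 to 21.3%) of the 10496 peaks with both active marks in 93-11 and at 3.24% (2.38 to 4.30%) of the 1420 with neither. In Nipponbare/93-11 these shares were 20% (19.3 to 20.7%) of 11862 and 6.85% (3.33 to 12.2%) of 146, and in 93-11/Nipponbare 20.6% (19.9 to 21.4%) of 11423 and 9.57% (5.94 to 14.4%) of 209. These shares were counted at active-only peaks alone, and whether other H3K4me3 peaks differ was not tested. No list of a control library was used here, so a signal shared by any precipitated library was not measured. The H3K27me3 peaks at these regions were narrower than those at peaks with H3K9ac and H3K27me3 and no DNA methylation in Nipponbare. The medians were 1069 and 1562 bp in 93-11. The H3K4me3 peaks of that class were wider too (median 1479 against 1248 bp), and the part of this was not tested. Active-only peaks with H3K27me3 in 1 line only had still narrower H3K27me3 peaks. They had a median H3K27me3 width of 950 bp where 93-11 alone had the mark, against 1167 bp for the 93-11 peak where all 3 lines had it.

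The share with H3K27me3 did not follow the distance to the nearest H3K27me3 of Nipponbare in a steady way. Of the 339 active-only peaks with such a peak within 500 bp, 25.7% (21.1 to 30.7%) had the mark in 93-11, 20.9% in Nipponbare/93-11 and 25.1% in 93-11/Nipponbare. At gaps of 500 to 1000 bp (366 peaks) the shares were 16.7% (13 to 20.9%), 15.8% and 16.7%, and at 1000 to 2000 bp (910 peaks) 15.5% (13.2 to 18%), 15.7% and 16.4%. At 2000 to 5000 bp (2930 peaks) they were 19.5% (18 to 20.9%), 21.3% and 21.5%, and at 5000 to 20000 bp (6123 peaks) 18.5% (17.5 to 19.5%), 19.7% and 19.7%. Beyond 20000 bp (1903 peaks) they were 15.7% (14.1 to 17.4%), 17% and 17.3%. The nearest class was the highest in 93-11 and 93-11/Nipponbare, and in Nipponbare/93-11 the class from 2000 to 5000 bp was. The shares by gap were counted at active-only peaks alone, with no background over other H3K4me3 peaks. The H3K27me3 peak of 93-11 at an active-only peak also touched an H3K27me3 peak of Nipponbare in 51 of 2291 cases (2.23%). Over the whole 93-11 list 72.4% of H3K27me3 peaks touched one, but the active-only peaks were chosen away from them. Peaks just outside the rule, with an H3K27me3 overlap of 1 to 100 bp in Nipponbare, numbered 14, and 7 had the mark in 93-11. Those just inside, with a gap of up to 100 bp, numbered 34, and 15 had it.

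Wider active-only peaks carried H3K27me3 more often in the other lines. Under 750 bp (558 peaks) it was listed at 13.6% (10.9 to 16.7%) in 93-11, and from 2500 to under 3000 bp (199 peaks) at 38.2% (31.4 to 45.3%). In the hybrids the same classes had 12.4 and 42.7% (Nipponbare/93-11) and 15.6 and 46.7% (93-11/Nipponbare). H3K27me3-free H3K4me3 peaks of the same widths, the background here, had 13.6 and 36.2% in 93-11, 12.9 and 41.3% in Nipponbare/93-11, and 15.5 and 44.9% in 93-11/Nipponbare. A wider region also meets another peak by 1 bp more easily, and its part in these shares was not tested. H3K4me3 was likewise listed more often at wider peaks. In 93-11 it had 74.0% (70.2 to 77.6%) under 750 bp, 81.8% (80.2 to 83.4%) from 750 to under 1000 bp and 93.5% (89.1 to 96.5%) in the widest class, where all H3K4me3 peaks had 71.2, 79.0 and 94.5%. The active pair alone in all 4 lines was found at 47.1% (42.9 to 51.4%) of the narrowest class and 24.6% (18.8 to 31.2%) of the widest.

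**Figure D4:**
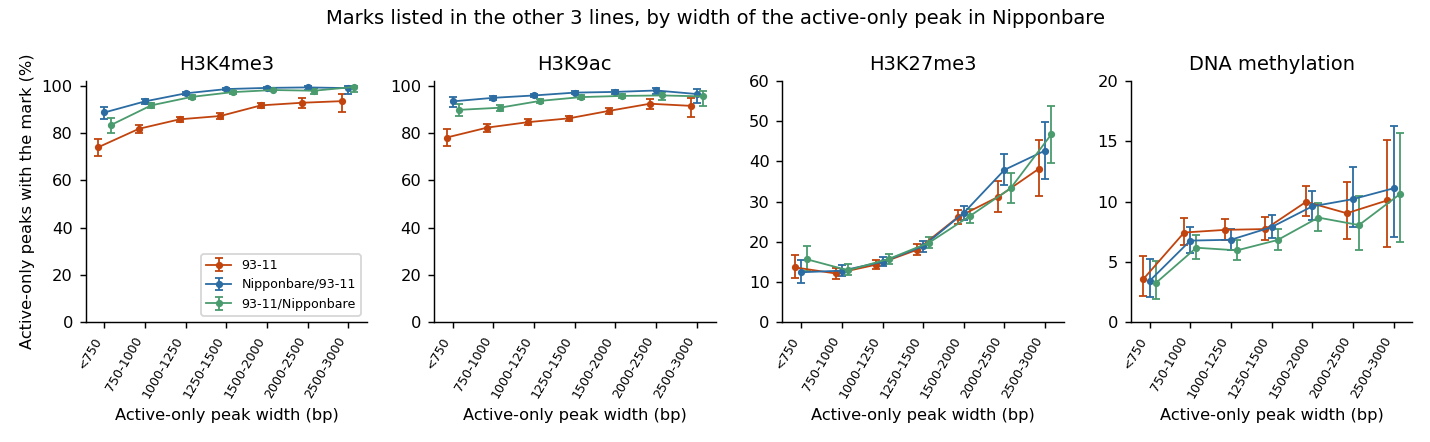
Share of active-only peaks with each mark listed in the other 3 lines (y axis, percent, with a scale of its own in each panel) by the width of the peak in Nipponbare (x axis, bp), with exact 95% intervals. H3K27me3 climbs from 13.6 to 38.2% in 93-11 between the narrowest and widest classes, and H3K4me3 from 74.0 to 93.5%.

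Of the 3 regions with most H3K27me3 in all 3 other lines, 2 were covered by it from end to end. These were 2846 bp of chromosome 6 (4339189 to 4342035), with the nearest H3K27me3 of Nipponbare 17716 bp away, and 2788 bp of chromosome 4 (28710458 to 28713246). Both active marks were listed there in 93-11 and both hybrids. On chromosome 4 from 23338776 to 23341764 (2988 bp) H3K27me3 covered 2736 to 2762 bp. Close to the region of chromosome 6, the one from 4330544 to 4333414 (2870 bp) was covered whole by H3K27me3 in 93-11 and had none in either hybrid. The other leading 93-11 case lay on chromosome 5 from 23379586 to 23382370, with 2642 of 2784 bp covered. In both hybrids and not in 93-11, H3K27me3 covered most on chromosome 8 from 28134565 to 28137556 (2819 and 2784 of 2991 bp) and on chromosome 1 from 3831908 to 3834679 (2771 and 2743 of 2771 bp), with the active pair in all 4 lines.

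In 93-11, DNA methylation was listed at 175 of the 1420 active-only peaks with neither active mark (12.3%, 10.7 to 14.1%), at 42 of the 655 with 1 (6.41%, 4.66 to 8.57%) and at 788 of the 10496 with both (7.51%, 7.01 to 8.03%). In Nipponbare/93-11 the shares with neither and with both were 7.53% (3.82 to 13.1%) and 7.75% (7.27 to 8.24%), and in 93-11/Nipponbare 11% (7.11 to 16.1%) and 6.64% (6.19 to 7.11%). In 93-11 it covered a median of 72.8% of the region where no active mark was left (quartiles 27.4 and 98.2%) and 27% where both were (10.5 and 45.5%). At least 50% was covered in 65.7% (58.2 to 72.7%) of the former cases and 19.5% (16.8 to 22.5%) of the latter. Without an active mark, the median covered was 69.2% over 11 such peaks in Nipponbare/93-11 and 95.7% over 23 in 93-11/Nipponbare. Of the 1420 peaks without either active mark in 93-11, 1207 had no mark of any kind there. All these shares are of active-only peaks, with no background over other H3K4me3 peaks.

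Among active-only peaks, a Nipponbare methylation peak within 500 bp went with DNA methylation in the other lines. It was listed at 16.4% (14.4 to 18.5%) of 1314 such peaks in 93-11, 18.3% in Nipponbare/93-11 and 17.1% in 93-11/Nipponbare. At gaps of 500 to 1000 bp (874 peaks) the shares were 6.75% (5.18 to 8.62%), 5.15% and 5.49%, and beyond 20000 bp (1302 peaks) 5.53%, 5.61% and 4.92%. The shares by gap were not counted over other H3K4me3 peaks without Nipponbare methylation, and whether those differ was not tested. With a gap of up to 100 bp (257 peaks, just inside the rule), 63 had it in 93-11, and with an overlap of 1 to 100 bp (186 peaks, just outside) 48. The methylation peak of 93-11 also touched one of Nipponbare in 18.1% (15.8 to 20.6%) of cases. Over the whole 93-11 list the share was 58.3%, but the active-only peaks were chosen to lack Nipponbare methylation.

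The regions with most DNA methylation differed in whether the active pair was listed. On chromosome 8 from 21927000 to 21928821 (1821 bp), DNA methylation covered the whole region in 93-11 and both hybrids. Neither active mark was listed there in 93-11, while both were in the hybrids. On chromosome 2 from 9538031 to 9540516 (2485 bp), methylation covered 1621 to 1802 bp, and H3K4me3 covered 900 bp in 93-11 against 2400 bp in Nipponbare/93-11 and 2258 bp in 93-11/Nipponbare, the latter without H3K9ac. On chromosome 5 from 2953869 to 2956202 (2333 bp), H3K4me3 covered the region in full in all 3 lines beside 1618 to 1856 bp of methylation, and 93-11/Nipponbare also had H3K27me3 there. In 93-11 alone, methylation covered 1468 of 1649 bp on chromosome 1 from 37129923 to 37131572 and all 1410 bp on chromosome 7 from 7682664 to 7684074, with no active mark there in 93-11. In both hybrids and not 93-11 it covered all 1321 bp on chromosome 6 from 13130389 to 13131710, where both hybrids also had both active marks and 93-11 had no mark. The next, on chromosome 3 from 6206255 to 6208700 (2445 bp), had 1336 and 1291 bp of methylation in the hybrids, both with all 4 marks, and the active pair alone in 93-11.

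Both H3K27me3 and DNA methylation were listed in 93-11 at 161 active-only peaks. These were 7.03% (6.01 to 8.15%) of the 2291 with H3K27me3 there, where 7.99% of all active-only peaks had DNA methylation. The count was not made over all H3K4me3 peaks. On chromosome 8 from 7378471 to 7379795 (1324 bp), both covered the whole region in all 3 other lines, beside both active marks. On chromosome 7 from 2164604 to 2165961 (1357 bp), 93-11 had both without an active mark.

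Most active-only peaks that 93-11 did not list for H3K4me3 were listed in the hybrids. Of the 1698 such peaks, 1120 (66.0%, 63.7 to 68.2%) were in both hybrids, against 65.0% of all Nipponbare H3K4me3 peaks missing from 93-11, which include them. The classes differed, with 75.2% (72.6 to 77.6%) for peaks with H3K9ac and H3K27me3 and 33.4% (29.3 to 37.7%) for those without H3K9ac. Of the 1698 active-only peaks, neither hybrid had 222 (13.1%, 11.5 to 14.8%), Nipponbare/93-11 alone had 281 (16.5%) and 93-11/Nipponbare alone 75 (4.42%). With the hybrids' H3K4me3 list shortened to the length of that of 93-11, the share in both hybrids was 50.6%. With the other lines' peaks of at least median width alone it was 8.31%, but of 7905 peaks. That setting also removes 93-11 peaks, so its share is of another set. The corresponding share for H3K9ac was 70.7% (68.6 to 72.8%) of 1797 peaks, against 72.3% of all H3K4me3 peaks with H3K9ac in Nipponbare and not in 93-11. Where 93-11 did list H3K4me3, both hybrids had it at 98.6% (98.4 to 98.8%). The hybrids' H3K4me3 peaks were narrower relative to Nipponbare where 93-11 had none. In 93-11/Nipponbare the median ratio of hybrid to Nipponbare width was 0.99 without H3K4me3 in 93-11 and 1.11 with it, and in Nipponbare/93-11 0.98 and 1.02. The hybrid peak was narrower than that of Nipponbare in 52.1% (49.3 to 55.0%) and 21.7% (21.0 to 22.5%) of cases in 93-11/Nipponbare, and in 55.1% (52.5 to 57.7%) and 42.7% (41.7 to 43.6%) in Nipponbare/93-11. For H3K9ac the ratios were closer, at 1.08 and 1.11 in 93-11/Nipponbare and 1.07 and 1.09 in Nipponbare/93-11. The whole H3K4me3 lists also differed in width, with medians of 1354 bp in Nipponbare, 1368 bp in Nipponbare/93-11 and 1481 bp in 93-11/Nipponbare. The ratios were taken at active-only peaks alone, with no background over other H3K4me3 peaks.

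H3K27me3 listed in 93-11 was in both hybrids at 1168 of 2291 active-only peaks (51.0%, 48.9 to 53.0%) and in neither at 495 (21.6%, 19.9 to 23.3%). The background was 85.1% over all H3K4me3 peaks with H3K27me3 in 93-11 and 51.6% over those without it in Nipponbare. Where 93-11 also lacked it, both hybrids had H3K27me3 at 438 of 10280 peaks (4.26%, 3.88 to 4.67%), with a background of 4.42%. DNA methylation of 93-11 was in both hybrids at 489 of 1005 peaks (48.7%, 45.5 to 51.8%), against 62.2% over all H3K4me3 peaks methylated in 93-11 and 50.8% over those not methylated in Nipponbare. Nipponbare/93-11 listed 66.0% (62.9 to 68.9%) of these and 93-11/Nipponbare 59.3% (56.2 to 62.4%). Where 93-11 lacked it too, both hybrids were methylated at 104 of 11566 peaks (0.899%, 0.735 to 1.09%, background 0.881%). In each of these comparisons the active-only peaks lay near the background of H3K4me3 peaks that lacked the mark in Nipponbare, most of which are active-only peaks for H3K27me3.

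Peaks without an active mark in 93-11 and with both in both hybrids numbered 831. The widest lay on chromosome 1 from 30562472 to 30565451 (2979 bp), where the hybrids' H3K4me3 peaks covered 1367 and 1388 bp and their H3K9ac peaks 2807 and 2913 bp. It was followed by chromosome 11 from 27216981 to 27219824 (2843 bp), with 2394 and 2471 bp of H3K4me3, and chromosome 7 from 3878904 to 3881556 (2652 bp), with 2024 and 989 bp. No active mark was listed in any of the other 3 lines at 68 peaks. The widest of them, 2181 bp of chromosome 11 (1815048 to 1817229) and 1837 bp of chromosome 4 (12424960 to 12426797), had no mark of any kind outside Nipponbare. The counts of 831 and 68 were not made over all H3K4me3 peaks, so no background stands beside them.

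The 2 active marks parted at some wide regions. H3K4me3 was listed without H3K9ac in 93-11 at 2950 bp of chromosome 5 (19744801 to 19747751) and at 2778 bp of chromosome 7 (29381157 to 29383935), and both hybrids had both marks there, with H3K27me3 added on chromosome 5 in 93-11/Nipponbare. H3K9ac was listed without H3K4me3 in 93-11 at 2963 bp of chromosome 12 (2250447 to 2253410) and at 2760 bp of chromosome 11 (4929072 to 4931832), in both cases with H3K27me3 in 93-11. Most of the 278 peaks of this kind lacked H3K27me3. H3K9ac was the only mark in 93-11 at 211 of them. It was joined by H3K27me3 at 44, by DNA methylation at 17 and by both at 6.

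Chromosomes 11 and 12 had the largest shares of active-only peaks without H3K4me3 in 93-11, as they had among all H3K4me3 peaks. The shares were 21.8% (18.9 to 25%, background 20.7%) on chromosome 11, 20.4% (17.6 to 23.4%, background 19.5%) on chromosome 12 and 7.77% (6.48 to 9.22%, background 9.25%) on chromosome 3, the lowest of the 12. Chromosomes 11 and 12 also had the lowest shares with H3K27me3 in 93-11, as among all H3K27me3-free H3K4me3 peaks. The shares were 15.2% (12.7 to 18%, background 15.7%) on chromosome 11 and 13.9% (11.6 to 16.5%, background 14.6%) on chromosome 12, against 20.8% (18.8 to 22.9%, background 19.8%) on chromosome 3. DNA methylation in 93-11 ran from 5.92% (4.83 to 7.17%) on chromosome 1 to 11.4% (9.5 to 13.6%) on chromosome 7. Among H3K4me3 peaks without DNA methylation in Nipponbare, these chromosomes had 5.35 and 9.05%. The density of active-only peaks ran from 25.9 per Mb on chromosome 11 to 42.2 per Mb on chromosome 3, where all H3K4me3 peaks had 63.8 and 91.6 per Mb. As a share of the H3K4me3 peaks of a chromosome, active-only peaks ranged from 39.9% (37.4 to 42.3%) on chromosome 10 to 48.1% (46 to 50.2%) on chromosome 5.

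**Figure D5:**
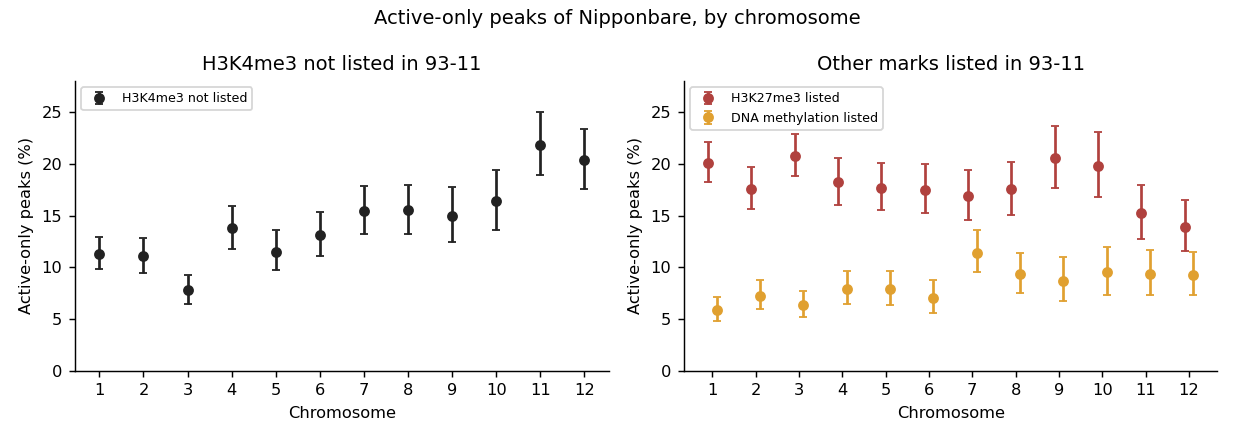
Active-only peaks of each chromosome (x axis) without H3K4me3 in 93-11 (left) and with H3K27me3 or DNA methylation in 93-11 (right), as a share of the active-only peaks (y axis, percent) with exact 95% intervals. Absence of H3K4me3 runs from 7.77% on chromosome 3 to 21.8% on chromosome 11.

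Active-only peaks without H3K4me3 in 93-11 tended to be neighbours, as did H3K4me3 peaks in general. Among pairs of adjacent H3K4me3 peaks that both met the rule, the next peak was also missing in 281 of 806 cases (34.9%, 31.6 to 38.3%) when the former was, and in 527 of 5103 (10.3%, 9.51 to 11.2%) when it was not. Over all adjacent Nipponbare H3K4me3 peaks these shares were 27.2% (25.8 to 28.7%) and 11.3% (10.9 to 11.7%). Among the pairs of active-only peaks, the shares for H3K27me3 in 93-11 were 20.5% (18.1 to 23.1%) and 16.9% (15.9 to 18.0%). For DNA methylation they were 11.3% (8.52 to 14.5%) and 7.80% (7.10 to 8.55%). The shares for H3K27me3 and DNA methylation were not counted over all H3K4me3 peaks, so no background stands beside them. Counting active-only peaks alone, 13 stretches held 5 or more in a row without H3K4me3 in 93-11, 74 peaks in all. These stretches were chosen after their values were seen. The largest number in a stretch was 10, over 275 kb of chromosome 12 (20262686 to 20538165). None of the 10 had any of the 4 marks in 93-11. Nipponbare/93-11 listed 9 for H3K4me3 and 10 for H3K9ac, and 93-11/Nipponbare 7 and 9. On chromosome 11 from 6771140 to 7030327 (259 kb), 7 peaks had no active mark in 93-11 and 2 had DNA methylation, while the hybrids listed 7 and 6 for H3K4me3. Over the 13 stretches, H3K9ac was listed at 8 of the 74 in 93-11, H3K27me3 at 0 and DNA methylation at 6, and H3K4me3 at 64 in Nipponbare/93-11 and 53 in 93-11/Nipponbare.

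The same rule applied to each other line's own lists gave 10661 peaks in 93-11 (38.7% of its H3K4me3 list), 11675 in Nipponbare/93-11 (38.0%) and 10790 in 93-11/Nipponbare (36.2%), against 44.5% in Nipponbare. Of those of 93-11, 7585 (71.1%, 70.3 to 72.0%) overlapped an active-only peak of Nipponbare, and 60.4% (59.5 to 61.2%) of the active-only peaks of Nipponbare overlapped one of them. Counting Nipponbare H3K4me3 peaks in any state, 9559 (89.7%) of the 93-11 set met one, and 1102 met none. These overlaps were not counted over all H3K4me3 peaks of 93-11, so no background stands beside them. Nipponbare had the shortest H3K27me3 list, with 17479 peaks against 18761 to 20460 in the other lines. The part of list length in its larger share was not tested.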

How the data were processed

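Each deposited file lists the peaks of 1 library as chromosome, start and end, in 3 columns without a header, score or p-value. Per the labels, libraries came from immunoprecipitated chromatin or McrBC-based enrichment of methylated DNA, made into Illumina libraries. Neither the read alignment, peak calling, controls nor build is given in the sources used here. Chromosome names are the same in all lists. Positions are printed as deposited, and width is end minus start. Read depth is unknown. The labels list 24 samples, of which 16 have a list and 8 RNA samples were not analysed here. Replicates were 1 per group, so no test was run.

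Overlaps were counted with Python 3.11.15, numpy 2.4.6, pandas 2.3.3 and scipy 1.17.1, and plots used matplotlib 3.10.9. The overlap count was tested on simulated data by removing peaks at random from a copy of the H3K4me3 list of Nipponbare (28273 peaks). With 19.7, 50.3 and 90.2% kept, the same percentages were found, and 400 of 400 overlaps checked directly were equal. The members, classes and comparisons were chosen with earlier results of these data known. Regions were named by a fixed rule: the 2 or 3 widest peaks of each state, or those with most bp covered by the mark they lacked in Nipponbare. Stretches were chosen after their values were seen. The 5 alternatives were a 50% reciprocal overlap, wide peaks alone, equal lengths of the other lines' lists, no width limit and a 500 bp margin. The gene table at hand belongs to another assembly, so no genes are named.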

Additional observations from a re-analysis of the deposited data

How the results depend on the processing

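No paired analysis was possible because each mark and line has 1 library, and for the same reason no replicate could be left out. Without the width limit (12693 peaks) each share stayed within its interval. With a margin of 500 bp around H3K27me3 and DNA methylation of Nipponbare (10935 peaks), the values that left their interval were H3K4me3 in 93-11 (87.3%), H3K9ac in 93-11 (86.4%), the active pair alone in all 4 lines (47.7%) and DNA methylation in 93-11, Nipponbare/93-11 and 93-11/Nipponbare (7.06, 6.47 and 5.59%). In what follows, the lines are in the order 93-11, Nipponbare/93-11, 93-11/Nipponbare.

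A 50% reciprocal overlap gave 85, 95.5 and 93.4% for H3K4me3, 82.7, 93.5 and 90.6% for H3K9ac, 15.4, 16.5 and 16.9% for H3K27me3 and 1.63, 1.34 and 1.44% for DNA methylation. It gave 50.8% for the active pair alone in all 4 lines. H3K4me3 in both hybrids without 93-11 was 61.4% of 1889 peaks, and DNA methylation of 93-11 in both hybrids 38.5% of 205. Keeping the other lines' peaks of at least median width, which removes about as many peaks as it keeps and most counterparts of narrow peaks, gave 37.1, 39.6 and 40.6% for H3K4me3, 38.2, 42.4 and 40.3% for H3K9ac, 3.99, 4.15 and 4.37% for H3K27me3 and 3.63, 3.29 and 2.77% for DNA methylation. The pair alone in all 4 lines was then 13%. The shares in both hybrids were 8.31% of 7905 peaks (H3K4me3 without 93-11), 47.7% of 501 (H3K27me3 of 93-11) and 35.1% of 456 (DNA methylation of 93-11). Their order turned, but the setting also removes 93-11 peaks, so these shares are of other sets than the main ones. Shortening to the shortest list of the 3 other lines, always that of 93-11, changed the hybrids alone: 87.4 and 89.6% for H3K4me3, 88.9 and 90.8% for H3K9ac, 15.6 and 15.6% for H3K27me3 and 7 and 5.89% for DNA methylation. The pair alone in all 4 lines was 40.6%, and the shares in both hybrids 50.6, 42.3 and 42.4% in the order just used. The cause of these changes was not tested. The lists hold no signal, so a peak just under the authors' threshold cannot be told from an absent mark. They also do not say where reads could be placed, so a region with no mark in 93-11 cannot be told from one without placed reads.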
